A study of Mus musculus with 8 samples.

Results

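The genes described here encode the subunits and assembly factors of respiratory complex I whose symbols begin with Nduf. They were measured in the diaphragm, the main breathing muscle, of mice of the dy/dy genotype, which have muscular dystrophy, and of normal mice. The members are all probe sets annotated with exactly 1 gene symbol that starts with Nduf, a rule that uses no measured value. It gave 74 of the 22690 probe sets on the array, for 39 genes. Normal diaphragm came from the control mice for dy/dy at 8 weeks of age, and dystrophic diaphragm from dy/dy mice at 8 weeks. Each group had 4 Affymetrix arrays, and each array held muscle pooled from 3 mice, so 12 mice per group. No transgene or treatment is named in the labels, and the strain of the controls is not given there. Replicates are pools, so differences between individual mice cannot be seen.

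Complex I, or NADH:ubiquinone oxidoreductase, is the entry point for electrons from NADH into the respiratory chain and pumps protons across the inner mitochondrial membrane. Its N module in the matrix arm oxidises NADH, its Q module passes the electrons to ubiquinone, and its membrane arm moves the protons. A core of conserved subunits carries out the chemistry, a larger set of accessory subunits surrounds it, and assembly factors help to build the complex without staying in it. Some core subunits are encoded by mitochondrial DNA, carry other symbols and are not described here. Diaphragm fibres contract throughout life and are rich in mitochondria.

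Signals are the deposited intensities after rescaling of the arrays to a common trimmed mean. Tests used log2(signal + 16), where the added 16 makes the change of a dim probe set slightly smaller. Each log2 difference is the dystrophic mean less the normal mean, so a negative value is lower in dystrophic muscle. The median rescaled signal per array lay between 172 and 207. Normal pool 4 had been deposited at a trimmed mean of 400.2, against 500.2 on the other arrays, before this rescaling. All 13 measured fast-fibre markers were bright enough to be tested, as muscle requires, with summed signals of 210793 to 327345 in normal and 206074 to 234430 in dystrophic pools. Of the 74 member probe sets, 71 passed the filter on dim probe sets, and every one of the 39 genes kept at least 1. The other 3, at signals of 13.1 to 95.3, were additional probe sets of Ndufa12, Ndufab1 and Ndufb9. The dimmest of them, for Ndufb9, at 13.1 to 32.6, was about as dim as the TrpnX negative controls, at 0.78 to 32.2.

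Complex I transcripts lay slightly and broadly lower in dystrophic diaphragm, and no single member passed the test. With each gene represented by its brightest probe set, 38 of 39 genes lay below 0. Their log2 differences had a median of -0.16 and a range from -0.34 for Ndufa5 to 0.16 for Ndufb7. Over probe sets, 66 of 71 lay below 0 (93.0%), against 52.3% of the 13575 probe sets tested, whose median was -0.01. limma, with Benjamini-Hochberg adjustment over all probe sets, called 0 of the 71 members, where 0.494% of all tested probe sets were called, 0.0368% as lower and 0.457% as higher. At an unadjusted p under 0.05 there were 11 of 71 members, all lower, where 9.72% of all tested probe sets reached that level, 4.13% lower and 5.6% higher. The lowest adjusted p among the members was 0.397. These members share arrays and a cell compartment and are not independent, so the counts describe them and test nothing.

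The groups overlapped in their mean over the complex. Normal pools had a log2 mean over the 39 genes of 12.5 ± 0.148 (SD, n = 4), and for dystrophic pools it was 12.4 ± 0.0680 (SD, n = 4). The normal pools lay at -0.0037, -0.06, 0.14 and 0.27 around the mean of all 8 arrays, for pools 1 to 4, and the dystrophic pools at -0.05, -0.09, -0.18 and -0.02. Normal pool 2 thus lay among the dystrophic pools, normal pool 1 just above them, and normal pool 4 above all others. It held the highest value of 26 of the 39 genes, and dystrophic pool 3 the lowest value of 20. A shift common to all member genes on an array took 45.4% of their variance over arrays, and 35.2% of their variance within groups.

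**Figure D1:**
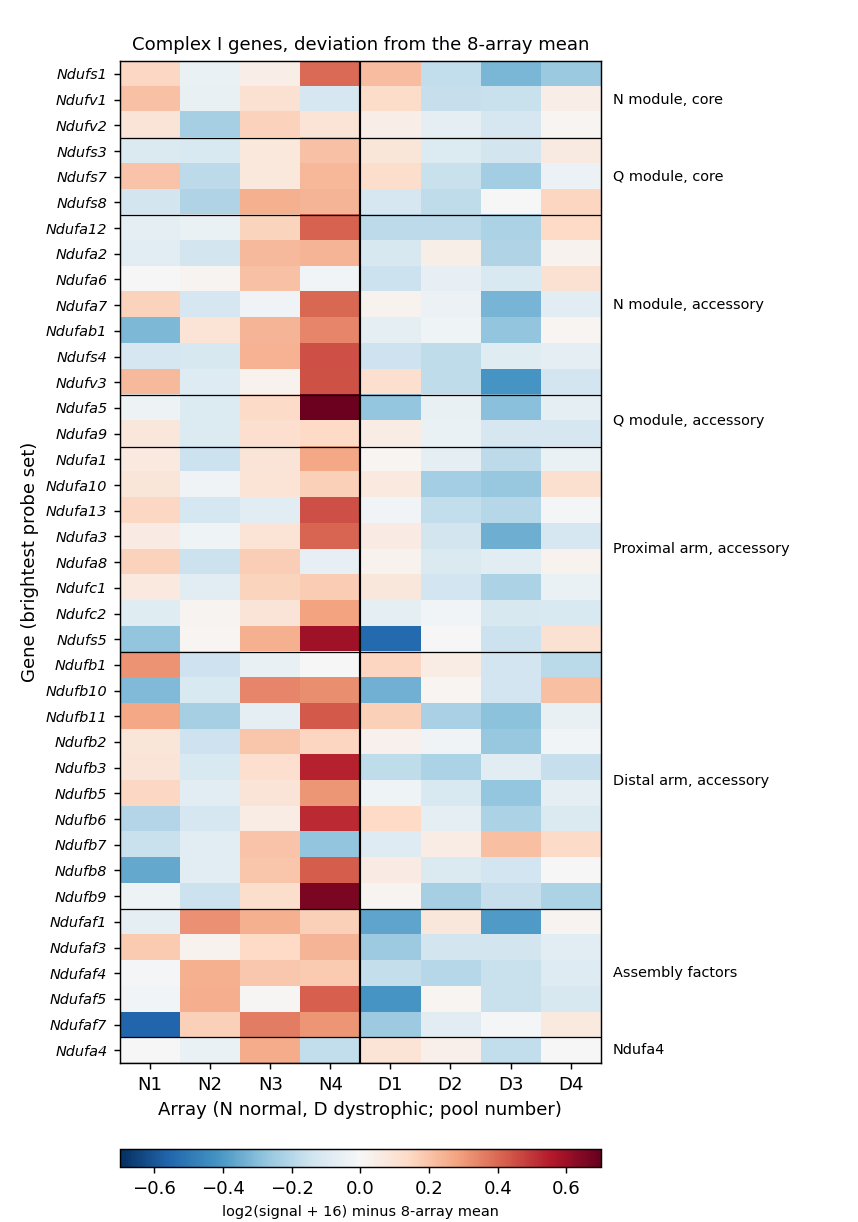
Each row is 1 complex I gene (brightest probe set) and each column 1 pool, N for normal and D for dystrophic. Colour gives log2(signal + 16) minus the mean of the 8 arrays. The column of normal pool 4 is the reddest, with the highest value of 26 genes, and that of dystrophic pool 3 holds the lowest value of 20.

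Other measured features of these arrays moved with the same pools. Without normal pool 4 the median over probe sets was -0.11 and without dystrophic pool 3 it was -0.14, against -0.16 with all arrays. Without both it was -0.07, and 0 of 71 members had an unadjusted p under 0.05. These pools held the highest and the lowest mean over the complex, so leaving them out draws the groups together by construction. Fewer pools also give less precision, so these omissions cannot show whether the fall rests on those pools. Under quantile normalization the median was -0.11 with 32 of 39 genes below 0, where the median of all tested probe sets was -0.02. On the values as deposited the member median was -0.08 with 31 of 39 genes below 0, where that of all tested probe sets was 0.06. Dystrophic pool 3 also held liver transcripts, with a summed signal of 62378 over 10 liver markers against 1297 to 6938 on the 7 other arrays. Normal pool 4 had the highest ratios of 3′ to 5′ control probe sets, 0.937 for Gapdh and 1.07 for β-actin, against 0.729 to 0.861 and 0.833 to 0.971 on the other arrays. The part of RNA quality in its high values was not tested.

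Among the core subunits of the N module, which strips electrons from NADH, the groups overlapped. Ndufv1, which carries the flavin and the NADH-binding site, had signals of 10193, 8530, 9532 and 8155 in normal pools 1 to 4 and 9667, 7906, 7951 and 9149 in dystrophic pools 1 to 4. Normal pool 4 was the lowest normal value here, unlike for most members. The log2 difference was -0.07 (SE 0.13, adjusted p = 0.911), and the other 2 Ndufv1 probe sets were at -0.03 and -0.18. Ndufv2, an iron-sulphur subunit beside it, had 12162, 9695, 12765 and 12209 in normal and 11789, 10917, 10533 and 11525 in dystrophic pools. All its dystrophic values lay within the normal range, with a log2 difference of -0.06 (SE 0.12). Ndufs1, the large iron-sulphur subunit, had 8644, 7557, 8062 and 10287 in normal and 9068, 6944, 6261 and 6520 in dystrophic pools. Dystrophic pools 2, 3 and 4 lay below every normal pool, and dystrophic pool 1 lay above all but normal pool 4. Its difference was -0.27 (SE 0.15, adjusted p = 0.608).

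The core subunits of the Q module, which hands electrons to ubiquinone, overlapped too. Ndufs3, at the base of the matrix arm, had 7538, 7508, 8511 and 9314 in normal and 8578, 7571, 7390 and 8448 in dystrophic pools, differing by -0.04 (95% interval -0.30 to 0.23). Ndufs7, which holds the last iron-sulphur cluster before ubiquinone, had 12545, 9638, 11523 and 12854 in normal and 11939, 9807, 9225 and 10619 in dystrophic pools, a difference of -0.16 (SE 0.13). Ndufs8, which carries further iron-sulphur clusters of that path, had 7956, 7512, 10311 and 10233 in normal and 8007, 7677, 8674 and 9635 in dystrophic pools on its brightest probe set, a difference of -0.07 (SE 0.14). No pool of either group stood apart on these 3 probe sets. Of 6 tested Ndufs8 probe sets, 5 lay below 0 and 1 above, at 0.08. A dimmer Ndufs8 probe set was separated, meaning that every normal pool lay on the same side of every dystrophic pool, with 659, 678, 689 and 662 in normal and 618, 603, 611 and 535 in dystrophic pools. Its log2 difference of -0.18 (SE 0.12, adjusted p = 0.675) lay within the range of the other Ndufs8 probe sets, and its replicates were closer together. Over the 6 core genes the median was -0.07 and 0 had an unadjusted p under 0.05. This median turned to 0.00 under quantile normalization, to 0.01 on the values as deposited and to 0.08 when arrays were shifted to an equal complex I median. The median of all tested probe sets in these fits was -0.02, 0.06 and 0.14, in the same order.

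The accessory subunits lay lower by a median of -0.16 over 27 genes, 26 of them below 0. The 7 accessory genes of the N module were at -0.10 to -0.30, with Ndufv3 lowest at -0.30 (SE 0.15, adjusted p = 0.563). Ndufs4, which holds the N module on the arm and is often mutated in inherited complex I deficiency, was at -0.23 (SE 0.14), with signals of 4960 ± 980 (SD, n = 4) for normal and 4161 ± 149 (SD, n = 4) for dystrophic muscle. Ndufa2, Ndufa6, Ndufa7, Ndufa12 and Ndufab1 were the others, at -0.13, -0.10, -0.21, -0.23 and -0.18. A further Ndufa12 probe set was separated, with 4251, 4387, 4815 and 4926 in normal and 3827, 4059, 3299 and 3961 in dystrophic pools. It was at -0.28 (SE 0.12, adjusted p = 0.469), and its identifier marks it as one that can bind related sequences. Ndufab1, the mitochondrial acyl carrier protein, had a dimmer probe set, with 789, 568, 497 and 755 in normal and 502, 554, 492 and 352 in dystrophic pools. Here the groups overlapped, and the difference was -0.44 (SE 0.19, adjusted p = 0.481).

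In the Q module Ndufa5 had the lowest difference of all 39 genes. Its signals were 6295, 6044, 7092 and 10406 in normal and 5350, 6224, 5275 and 6157 in dystrophic pools, differing by -0.34 (SE 0.17, adjusted p = 0.549). Normal pool 4 was high, while normal pools 1 and 2 lay close to dystrophic pools 2 and 4. Its second probe set was at -0.23. Ndufa9, near the ubiquinone site, was at -0.12 (SE 0.11).

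The membrane arm, which moves protons, had 18 accessory genes with a median of -0.16. In its proximal part all 8 genes lay below 0, from -0.07 for Ndufa8 to -0.29 for Ndufs5, with Ndufa1, Ndufa3, Ndufa10, Ndufa13, Ndufc1 and Ndufc2 between. Ndufa10 had the lowest value of all members on a dim probe set, with 564, 759, 451 and 884 in normal and 355, 553, 300 and 521 in dystrophic pools. These groups overlapped, and the difference was -0.60 (SE 0.24, adjusted p = 0.450). The brightest Ndufa10 probe set was at -0.16 (SE 0.13), with signals of 8012 ± 433 (SD, n = 4) for normal and 7212 ± 986 (SD, n = 4) for dystrophic muscle, so the probe sets of this gene differed in size.

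In the distal part 9 of 10 genes lay below 0. Ndufb3 had 7022, 6119, 7148 and 9558 in normal and 5813, 5639, 6241 and 5880 in dystrophic pools. Only dystrophic pool 3, at 6241, lay above the lowest normal pool. The difference was -0.32 (SE 0.14, adjusted p = 0.499). Ndufb5 had a separated probe set, with 5188, 4870, 5588 and 5409 in normal and 4300, 4642, 4262 and 4617 in dystrophic pools. It was at -0.24 (SE 0.11, adjusted p = 0.510) and the brighter Ndufb5 probe set also at -0.24 (SE 0.12). Ndufb11 was separated on 1 of 3 probe sets, with 8323, 7456, 8355 and 12333 in normal and 7332, 6873, 7050 and 7186 in dystrophic pools. The gap there, between 7456 and 7332, was narrow, normal pool 4 raised the normal mean, and the log2 difference was -0.33 (SE 0.15, adjusted p = 0.524). The 2 other Ndufb11 probe sets overlapped, at -0.20 and -0.22.

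Among the remaining distal genes, Ndufb9 lay lowest by its brightest probe set. A dimmer Ndufb6 probe set had 2025, 3137, 3042 and 3324 in normal and 1718, 2368, 2037 and 2565 in dystrophic pools. Normal pool 1 lay among the dystrophic pools, and the difference was -0.40 (SE 0.18, adjusted p = 0.513), while the brightest Ndufb6 probe set was at -0.13. Ndufb9 had 16557, 15298, 18474 and 26813 in normal and 17191, 14412, 15145 and 14517 in dystrophic pools, a difference of -0.30 (SE 0.17) in which normal pool 4 stood far above the rest. Ndufb1, Ndufb2, Ndufb8 and Ndufb10 were at -0.06, -0.14, -0.09 and -0.12.

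Ndufb7, on the outer face of the distal membrane arm, was the 1 gene of 39 with a higher mean in dystrophic pools. Its brightest probe set had 7855, 8300, 10054 and 7247 in normal and 8245, 9101, 10144 and 9620 in dystrophic pools. Normal pool 4 was here the lowest of all pools, and the groups overlapped. The difference was 0.16 (SE 0.13, adjusted p = 0.771), and a second probe set was at 0.22 (SE 0.14, adjusted p = 0.689). It stayed above 0 in each of 27 alternative fits or contrasts, between 0.01 and 0.31, and passed in none of those with a test. When every array was shifted to an equal complex I median, which moved the median of all probe sets to 0.14, Ndufb7 was at 0.31 (SE 0.15, adjusted p = 0.476). In that fit limma called 0 of 71 members, where 0.604% of all probe sets were called, and 1 member had an unadjusted p under 0.05, where 10.9% of all probe sets did. No member was thus shown to depart from the rest of the complex.

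Ndufa4, once counted in complex I and now assigned to cytochrome c oxidase, had the log2 difference nearest to 0 among the brightest probe sets of the 39 genes. It had 12983, 12578, 15525 and 11500 in normal and 13883, 13284, 11528 and 13027 in dystrophic pools, differing by -0.02 (95% interval -0.30 to 0.26). Its sign turned under several alternatives.

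**Figure D2:**
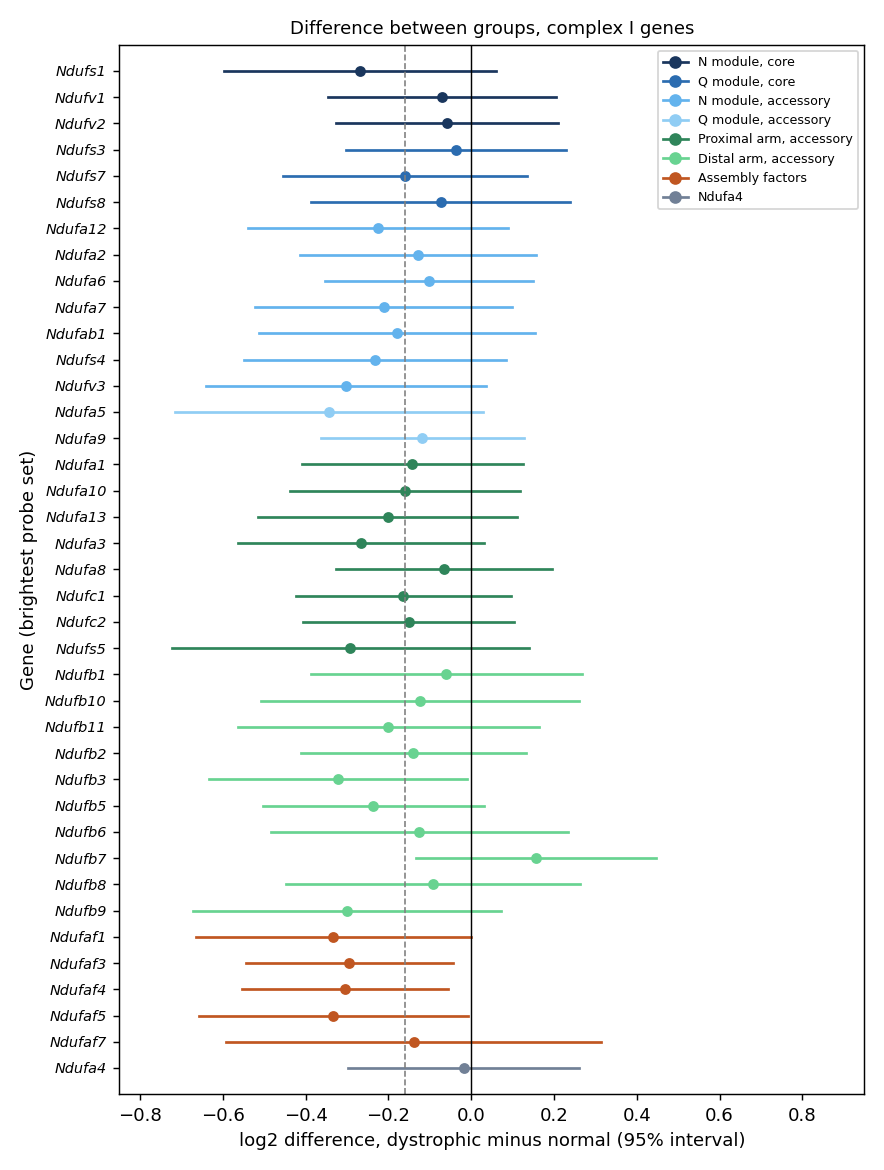
Log2 difference, dystrophic minus normal, with its 95% interval from limma, for the brightest probe set of each of 39 genes, coloured by role. The dashed line marks their median of -0.16. All but Ndufb7 lie left of 0, and all but 5 intervals include 0.

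The assembly factors with Nduf symbols had the lowest median of the roles, -0.30 over 5 genes, all below 0. They were also dimmer, with a normal mean log2 of 9.75, against 12.9 for accessory and 13.2 for core genes. The part of brightness in this ranking was not tested. At an unadjusted p under 0.05 there were 4 of these 5 genes, against 1 of 27 accessory and 0 of 6 core genes, all lower, and 344 of all 8214 genes tested were lower at that level. None of the member genes passed after adjustment. Ndufaf3 and Ndufaf4, which act together early in building the Q module, were separated. Ndufaf3 had 1213, 1087, 1175 and 1261 in normal and 892, 976, 974 and 1008 in dystrophic pools. The lowest normal pool exceeded the highest dystrophic pool by more than the SD of either group. The difference was -0.29 (SE 0.11, limma adjusted p = 0.428). Ndufaf4 had 1259, 1508, 1447 and 1442 in normal and 1128, 1101, 1138 and 1191 in dystrophic pools. The dystrophic pools lay within a narrow band below every normal pool, at -0.30 (SE 0.11, limma adjusted p = 0.397). A dimmer Ndufaf4 probe set had 733, 1060, 902 and 827 in normal and 607, 776, 553 and 777 in dystrophic pools. That probe set overlapped through normal pool 1 and was at -0.37 (SE 0.16).

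The remaining assembly factors overlapped between groups. Ndufaf1, part of the early membrane-arm assembly machinery, had 1067, 1396, 1329 and 1254 in normal and 862, 1180, 845 and 1132 in dystrophic pools. Dystrophic pools 1 and 3 were low, and the other dystrophic pools lay above normal pool 1. The difference was -0.33 (SE 0.15, adjusted p = 0.513). Ndufaf5, which modifies Ndufs7 during assembly, had 662, 804, 676 and 901 in normal and 500, 677, 602 and 619 in dystrophic pools, at -0.33 (SE 0.15, adjusted p = 0.501). Dystrophic pool 2 alone lay above the lowest normal pools. Ndufaf7, a methyltransferase that acts on another core subunit, had 165, 283, 325 and 314 in normal and 207, 237, 248 and 263 in dystrophic pools, a difference of -0.14 (SE 0.21). Normal pool 1 was the lowest of all arrays there. Groups that do not overlap, with the dystrophic pools lower, were found for 6 of 71 members and for 2.53% of all tested probe sets. Groups apart in the other direction were found for 0 members and for 3.87% of all tested probe sets.

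**Figure D3:**
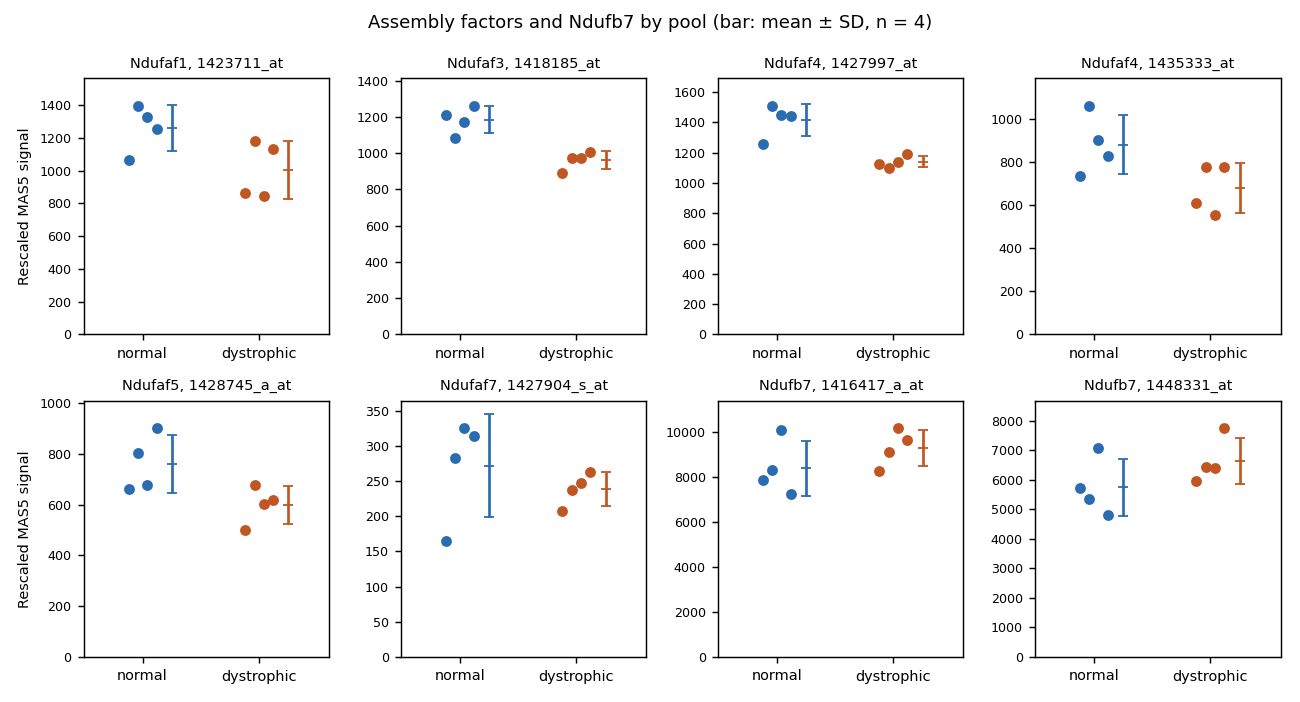
Rescaled signal in each pool for the 6 assembly factor probe sets and the 2 Ndufb7 probe sets, on axes that start at 0. Points are pools and bars the mean ± SD (n = 4). The groups do not overlap for Ndufaf3 and for the brighter Ndufaf4 probe set, and both Ndufb7 probe sets have a higher mean in dystrophic pools.

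The median of the assembly factors was -0.15 when arrays were shifted to an equal complex I median, and lay between -0.36 and -0.23 in the other alternatives. It was -0.26 without normal pool 4 and dystrophic pool 3 together, where the accessory median was -0.07. Those pools held the highest and the lowest accessory mean, whereas dystrophic pool 1 was lowest for the assembly factors. This omission therefore does not treat the roles alike. The mean of the 5 assembly factors relative to that of the 34 other genes was nonetheless variable. It stood at -0.10, 0.30, 0.06 and -0.01 in normal pools 1 to 4 and at -0.27, 0.03, 0.01 and -0.02 in dystrophic pools 1 to 4, on the log2 scale and around the 8-array mean. Normal pool 2 and dystrophic pool 1 held the extremes, and the other pools of both groups overlapped. A difference between assembly factors and subunits was therefore not larger than the spread between pools.

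Assembly factors of complex I with other names, from a list of 14 of which 11 were tested, gave 0 called, 9 below 0 and a median of -0.20. At an unadjusted p under 0.05 there were 3, all lower. Dmac2, a factor of the distal membrane arm, had 517, 502, 578 and 665 in normal and 372, 382, 471 and 416 in dystrophic pools. Its groups did not overlap, and the difference was -0.45 (SE 0.14, adjusted p = 0.282). Aifm1, needed for import of complex I proteins, was at -0.46 (SE 0.18, adjusted p = 0.445). The summed signal of the 11 genes was 10583 to 11563 in normal and 9003 to 9980 in dystrophic pools.

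The other respiratory complexes lay at differences of the same size. Medians were -0.19 over 7 genes of complex II, -0.18 over 14 of complex III, -0.17 over 26 of complex IV and -0.19 over 17 of complex V, and limma called 0 in each. At an unadjusted p under 0.05 there were 0, 0, 1 and 1 members, all lower. The mean of the complex I genes minus that of each other complex differed between groups by 0.01, -0.02, -0.02 and -0.01 for complexes II to V, with SDs among pools of 0.0118 to 0.0694. Each of these differences was smaller than the SD of either group. Sdha, the flavoprotein of complex II, was at -0.25 (SE 0.13), and its groups were narrowly apart, with 8859 the lowest normal and 8843 the highest dystrophic signal. Uqcrb of complex III was at -0.28 (SE 0.15), and Tmem70, an assembly factor of complex V, at -0.43 (SE 0.15, adjusted p = 0.317). Of 15 genes of mitochondrial membranes, import and chaperones 13 lay below 0, with a median of -0.22 and 0 called, 4 of them lower at an unadjusted p under 0.05. Of 17 regulators of mitochondrial genes 11 lay below 0, with a median of -0.06, and limma called 0, as did the unadjusted threshold. Ppargc1a, a coactivator of mitochondrial genes, was at -0.37 (SE 0.22), and Gabpb1 at -0.26 (SE 0.15).

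**Figure D4:**
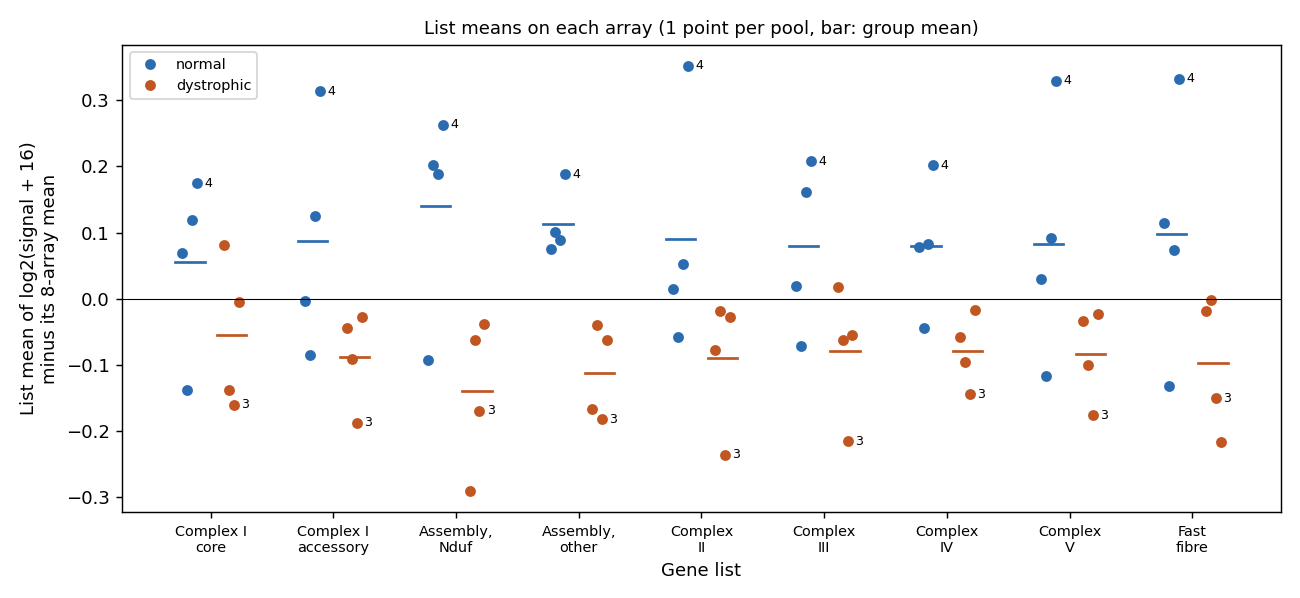
Mean of log2(signal + 16) over each gene list on each array, minus its mean over 8 arrays, with 1 point per pool and a bar for the group mean. Normal pool 4 and dystrophic pool 3 are numbered. Normal pool 4 is the highest point in each of these 9 lists, and the dystrophic group mean lies below the normal one in each.

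Of the marker lists, those of macrophages and fibroblasts had members that passed the test, and those of fibres, adipocytes, erythroid and cardiac cells had none. In bulk muscle, fewer fibres and less RNA per fibre cannot be told apart. The 13 fast-fibre genes had a median of -0.21, with 0 called and 1, Pvalb, lower at an unadjusted p under 0.05. The mean of complex I minus that of the fast-fibre genes was -0.12, 0.08, 0.06 and -0.06 in normal and -0.03, -0.09, -0.03 and 0.19 in dystrophic pools, a group difference of 0.02. The pools of both groups overlapped on this measure. The 9 slow-fibre genes had a median of 0.25, with 0 called and 2, Casq2 and Tnnt1, higher at an unadjusted p under 0.05. Macrophage markers had 15 of 15 members above 0 and 4 called higher, where 0.457% of all probe sets were called higher, with summed signals of 7870 to 10699 in normal and 14036 to 17039 in dystrophic pools. Fibroblast markers had 8 of 9 members above 0 and 4 called higher, with sums of 27853 to 33147 and 40976 to 51812. Adipocyte markers had sums of 7681 to 12827 and 8636 to 12251, erythroid markers 429 to 1419 and 573 to 813, and cardiac markers 2017 to 6493 and 3289 to 6944. The ranges of these last 3 lists overlapped, limma called 0 of 5, 0 of 2 and 0 of 3 tested members, and no marker was listed at 0. The part of the macrophage and fibroblast transcripts in the lower complex I values was not tested.

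Probe sets of the same gene were compared by sign. For 17 of the 20 genes measured by several tested probe sets, these lay on the same side of 0. The 3 that did not were Ndufv2, Ndufs8 and Ndufa7, with values from -0.21 to 0.08. Since 66 of 71 member probe sets lay below 0 on these same arrays, a shared sign says little about measurement error. The precision allowed by 4 arrays per group was limited: the 95% interval reached a fall of 0.5 on the log2 scale for 20 of the 39 genes, and excluded a rise of 0.5 for all 39. Falls of that size in those 20 genes were therefore not excluded.

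Promoter sequences show what regulatory letters these genes share, since many are known targets of nuclear respiratory factors. RefSeq windows of build GRCm38.p6, from 250 bases before to 50 after a gene's start, matched 36 of the 39 genes in 38 windows. The unmatched genes were Ndufa2, Ndufb9 and Ndufs1. The NRF1 motif, searched like the others on both strands, lay in 18.4% of the member windows and in 4.6% of all 32851 windows. Both overlapping windows of Ndufa5 held it. Counted by gene, it lay in 6 of 36 members, or 16.7%, against 5.19% of all genes. The YY1 motif AAGATGGCG lay in 10.5% against 1.4%, the ETS motif CCGGAAG, bound by GABPA, in 13.2% against 8.86%, and the CCAAT box in 26.3% against 37.4%. The ERR motif TCAAGGTCA was found in 0 of 38 windows and in 0.423% of all. Letters of one motif did not overlap those of another in the stretches printed here. These shares are descriptions of letters, with no adjustment for base composition. The stretches below are the 120 bases before the start of the gene with the lowest difference, of 2 assembly factors and of the 1 gene above 0, with motif letters in capitals.
Ndufa5 (chr6:24527691-24527810, minus strand, NRF1): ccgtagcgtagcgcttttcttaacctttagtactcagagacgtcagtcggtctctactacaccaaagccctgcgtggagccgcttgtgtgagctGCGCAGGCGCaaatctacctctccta
Ndufaf4 (chr4:24897963-24898082, plus strand, NRF1): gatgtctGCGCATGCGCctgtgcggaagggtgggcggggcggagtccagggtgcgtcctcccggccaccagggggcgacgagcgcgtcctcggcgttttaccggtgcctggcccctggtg
Ndufaf1 (chr2:119662835-119662954, minus strand, ETS): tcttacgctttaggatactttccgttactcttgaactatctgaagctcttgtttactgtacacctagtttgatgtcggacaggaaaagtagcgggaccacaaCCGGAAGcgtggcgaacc
Ndufb7 (chr8:83566638-83566757, plus strand, ETS): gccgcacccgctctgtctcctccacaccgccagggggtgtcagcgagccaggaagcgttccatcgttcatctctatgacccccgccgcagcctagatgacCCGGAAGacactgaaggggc

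Ndufa5 has a second annotated start further downstream, and the stretch shown lies before the upstream one. The 5 genes with the ETS letters were Ndufaf1, at -0.33, Ndufb6, at -0.13, Ndufs8, at -0.07, Ndufs3, at -0.04, and Ndufb7, at 0.16.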

How the data were processed

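Signal intensity, on a linear scale, was deposited by the authors as a single table. MAS5, which corrects for mismatch probes and scales each array, made it, per the submitters' processing notes (no version given). The 2% trimmed means differed by more than 10%, so all arrays were rescaled to their mean, 487.7. Controls (64 probe sets) and the lowest 40% by mean log2(signal + 16) were left out, leaving 13575. The comparison used limma 3.58.1 under R 4.3.3 (a linear model per probe set, moderated variances with a trend over intensity, Benjamini-Hochberg adjustment, threshold 0.05), after a check on simulated data. Symbols come from the platform annotation, updated by Entrez identifier through a GRCm38.p6 gene table, which changed 0 member symbols. The probe set with the highest average log2 value stands for its gene. The members, gene lists and motifs were chosen with earlier results of these data known.

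Every member gene is named. Values on every array are given for the brightest probe set of each core subunit, any member called, any whose groups do not overlap or whose unadjusted p is under 0.05, the 3 lowest and up to 3 highest genes, Ndufa4 and the brightest assembly factor, 22 probe sets in all. Those of Ndufb9 and Ndufaf7 were added after their values were seen. In other lists the 2 genes with the lowest p could be named. Alternatives were offsets of 1 and 64, other scalings, filters, variance models, blocks, omitted arrays, a threshold of 0.01 and probe set means. Replicate numbers were checked as pairs, and the p-values measure the spread between pools. Figures used matplotlib 3.10.9 in Python 3.11.15.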

Additional observations from a re-analysis of the deposited data

Results flagged for a closer look

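Among 118 groups of 4 arrays examined, 2 held an array far from the other 3, or 1.69%, where chance gives about 1 in 20. For Ndufa12, an accessory subunit of the N module, the brightest probe set read 5902 in dystrophic pool 4 against 4591 to 4725 in the other dystrophic pools. For Ndufa6, of the same module, normal pool 3 read 6773 against 5785 to 5949 in the other normal pools.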

How the results depend on the processing

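limma called 0 complex I members in every fit with a test, at 0.05 and at 0.01. The lowest adjusted p was 0.0528 with the poly-A control group as a block, on the dim Ndufa10 probe set. The brightest Ndufa10 probe set was at -0.16 in the main fit. With the replicate block the lowest adjusted p was 0.0741, and 14 members were lower at an unadjusted p under 0.05. That block raised the calls over all probe sets from 67 to 105. Same-numbered pools correlated at 0.48, -0.05, 0.15 and 0.13, above 0.1 in 3 of 4 pairs, and different-numbered pools at -0.25 to 0.16. The poly-A controls also went partly with the numbers. The labels do not state that the numbers pair the pools, so the main fit used no block. Its p-values therefore leave out any such pairing. Leaving out 1 array gave medians from -0.21 to -0.11 and 2 to 13 members lower at an unadjusted p under 0.05 (5 without normal pool 3, 3 without normal pool 4, and 5, 7, 2 and 6 without dystrophic pools 1 to 4). Poly-A control signals, 544 to 590 in pools 1, 308 to 355 in pools 3 and 126 to 173 in pools 2 and 4, divided the arrays into 3 sets. Within them the median over members was -0.045, -0.31 and -0.21, with 27, 38 and 31 of 39 genes below 0. Of 586 values for the 22 named probe sets, 26 changed sign and 0 came to pass; the cause was not tested. A further 7, all between pools 3 alone, kept their sign but moved beyond a limit wider than their SE. Among them were Ndufaf1 at -0.64, the dimmer Ndufaf4 probe set at -0.69 and Ndufab1 at -0.02. That limit was applied only to contrasts without a test, so shifts in size in the other fits were not counted. Sign changes under quantile normalization were Ndufv2 0.0725, Ndufs3 0.0326, Ndufs8 0.0217, Ndufa4 0.115 and the core median 0.0047. On the values as deposited they were Ndufv1 0.0099, Ndufv2 0.0219, Ndufs3 0.0438, Ndufs8 0.0064, Ndufa4 0.0618 and the core median 0.0082. At an equal complex I median they were Ndufv1 0.0824, Ndufv2 0.0943, Ndufs3 0.116, Ndufs8 0.0789, Ndufa4 0.134 and the core median 0.0807. In pools 2 and 4 alone they were Ndufv1 0.0281, Ndufv2 0.0439 and Ndufa4 0.129, and between pools 1 alone Ndufs1 0.0690, Ndufs3 0.186, Ndufs8 0.0091 and Ndufa4 0.0966. Leaving out 1 array moved Ndufa4 between -0.0799 and 0.0643 (above 0 without normal pool 3 or dystrophic pool 3) and Ndufs3 between -0.0778 and 0.0256 (above 0 without normal pool 4 or dystrophic pool 3). Without both normal pool 4 and dystrophic pool 3, Ndufs3 was at 0.0625.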
